A study of Mus musculus with 16 samples.

Results

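The NRF2 antioxidant targets described here are 10 genes out of the 20295 in the count table. They were selected by symbol: Nfe2l2, Hmox1, Nqo1, Gclm, Gclc, Txnrd1, Srxn1, Osgin1, Gsr and Slc7a11. The choice also drew on a readout of these data, the higher Hmox1 level with etomoxir alone, so the comparison of etomoxir with vehicle is described here without a test. Each of the 10 genes passed the filter on low counts and was tested, as were 12786 genes in all.

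The study asked how brown adipocytes change gene expression when lipolysis is switched on by a drug, and whether handling of the released fatty acids matters for it. RNA was sequenced from BAT-LgT cells, a wild-type (WT) line of brown preadipocytes from mouse that the SV40 large T antigen made immortal, differentiated in culture to day 7. By the study's description the repeats within a group are independent experiments, while samples of different groups may share an experiment. All come from 1 cell line, not from different animals. SR-3420 is a ligand of ABHD5 that releases ABHD5 to activate the lipase ATGL; triacsin C inhibits the acyl-CoA synthetases that activate fatty acids, and etomoxir inhibits CPT1, which admits them to mitochondria. The 16 samples form 6 groups. Cells were pretreated for 1 h with DMSO vehicle, with 5 µM triacsin C or with 50 µM etomoxir, and then given vehicle or SR-3420 for 3 h. The labels give 10 µM SR-3420, while the study's text gives a higher dose. Without an inhibitor, the vehicle group and the SR-3420 group have 2 samples each. With triacsin C or with etomoxir, the group without SR-3420 and the group with it have 3 samples each. Vehicle has replicates 2 and 3, SR-3420 has replicates 1 and 3, and the other groups have replicates 1 to 3.

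Total counts per sample ran from 9452861 to 25670624, with a median of 13602886. The vehicle samples had 10097582 and 14032494 counts and the SR-3420 samples 15667121 and 19156037. Totals ran from 9452861 to 15818919 with triacsin C, from 10659704 to 16265789 with triacsin C and SR-3420, from 10993504 to 14993463 with etomoxir, and from 13173278 to 25670624 with etomoxir and SR-3420. Levels are given as CPM, the counts scaled to a common library size by TMM. Adjusted p-values are those of edgeR (quasi-likelihood test, corrected by Benjamini-Hochberg over the tested genes), and they measure the spread between samples, which may be technical. In bulk RNA, fewer cells of a kind and less RNA per cell cannot be told apart.

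NRF2, encoded by Nfe2l2, is a transcription factor that KEAP1 marks for degradation in resting cells. Electrophiles and oxidants modify KEAP1, NRF2 then builds up, pairs with small MAF proteins and binds antioxidant response elements, where BACH1 competes with it. Its targets make glutathione and thioredoxin systems, break down heme and reduce quinones, and some of them, Hmox1 and Slc7a11 among them, also answer to other stress factors.

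The promoters of 7 of the 10 targets, 9 promoters in all, were read for 3 motifs to show where they lie. Carrying an antioxidant response element is part of why such genes are known as NRF2 targets, so its presence is not independent of the choice by symbol. Sequences came from the RefSeq promoter table of build GRCm38.p6, which differs from the mm9 build of the counts, and each promoter runs from 250 bases before to 50 bases after the start. The core of the antioxidant response element, TGACNNNGC, was present in 4 of the 7 targets and in 12.4% of the 32851 promoters searched. The AP-1 motif TGACTCA was present in 2 of the 7 and in 5.20% of all promoters. The C/EBP-ATF motif TGATGNAA was present in 1 of the 7, Slc7a11, and in 3.97% of all promoters. Nqo1 had none of the 3 motifs in these bases, and a match describes the sequence and no more. Hmox1, Gclc and Gsr have no entry in the table. With 7 of 10 read, and counts per gene for the targets but per promoter for the table, a comparison of the targets' share with that of all promoters is void. The stretches below come from chr2:75704880-75704913 on the minus strand (Nfe2l2), chr3:122245408-122245446 on the plus strand (Gclm), chr10:82859099-82859137 on the plus strand (Txnrd1), chr2:152105407-152105500 on the plus strand (Srxn1), chr8:119437035-119437071 on the plus strand (Osgin1) and chr3:50443638-50443694 on the minus strand (Slc7a11). They are printed 5′ to 3′ on the strand of the gene, and capitals mark the motif matches on either strand.
Nfe2l2: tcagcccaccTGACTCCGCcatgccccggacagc
Gclm: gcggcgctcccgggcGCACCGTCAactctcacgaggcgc
Txnrd1: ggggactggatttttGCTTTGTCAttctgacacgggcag
Srxn1: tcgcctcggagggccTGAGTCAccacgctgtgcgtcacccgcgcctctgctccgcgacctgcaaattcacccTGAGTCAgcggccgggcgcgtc
Osgin1: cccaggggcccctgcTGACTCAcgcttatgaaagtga
Slc7a11: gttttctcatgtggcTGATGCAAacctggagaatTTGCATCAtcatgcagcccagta
The antioxidant response element cores began 240 bases before the start in Nfe2l2, 134 in Gclm and 92 in Txnrd1. In Srxn1 the AP-1 matches lay 102 and 45 bases before the start, and a core of the antioxidant response element lay 28 bases after it. The Osgin1 match lay 97 bases before the start, and the matches in Slc7a11 lay 66 and 47 bases before it.

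**Figure D1:**
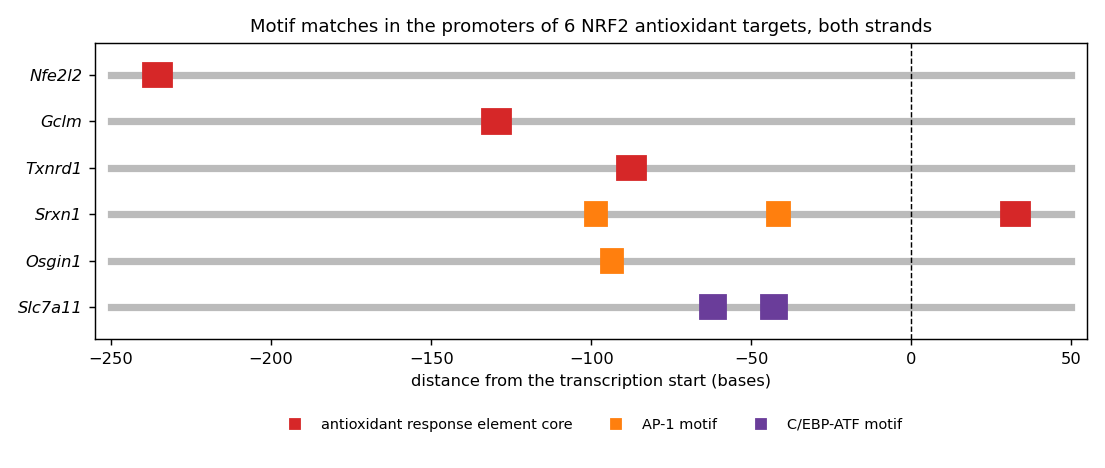
Positions of the motif matches in the promoters of 6 NRF2 antioxidant targets, in bases from the start (horizontal axis), 1 line per gene. Slc7a11 carries the C/EBP-ATF motif, at 66 and 47 bases before the start.

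The question asked of SR-3420 against vehicle is what lipolysis does alone. SR-3420 raised 3 of the 10 targets, beside 4.75% of all tested genes. It lowered 0 of the 10, beside 2.79% of all tested genes; the edgeR count at an unadjusted p under 0.05 was 2, and DESeq2 also lowered 0. The 3 raised were Hmox1, Txnrd1 and Slc7a11, and only Hmox1 was left with the compared groups alone or without either vehicle replicate. The Hmox1 levels with vehicle and with etomoxir entered the choice. Its place in every count of targets that uses those samples is therefore not independent of the choice. The median log2 fold change was 0.49 over the targets and -0.00 over all tested genes. When triacsin C was present, SR-3420 raised 4 targets, beside 17.3% of genes, and lowered 3, beside 19.7%, with a median of 0.24 against 0.02 over all genes. When etomoxir was present, it raised 5, beside 12.5%, and lowered 1, beside 12.8%, with a median of 0.32 against 0.01. With the compared groups alone the counts were 1 raised by SR-3420, 5 raised and 3 lowered over triacsin C, and 2 raised and 0 lowered over etomoxir, and by DESeq2 they were 4, 4 and 3, and 5 and 4. Leaving out a sample moved some of these counts by more than 1.5 times: the 3 raised by SR-3420 became 1 without vehicle replicate 2 or 3, the 3 lowered over triacsin C became 1 without triacsin C with SR-3420 replicate 2, and the 1 lowered over etomoxir became 2 without replicate 1 or 3 of etomoxir or of etomoxir with SR-3420.

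The inhibitor comparisons ask what blocking fatty acid activation or mitochondrial entry does. Triacsin C against vehicle raised 6 of the 10, beside 4.77% of genes, and lowered 0, beside 6.94%; 0 were lower at an unadjusted p under 0.05 and 0 by DESeq2. The median was 1.23, against 0.07 over all genes. Among cells given SR-3420, triacsin C raised 6, beside 1.02%, and lowered 0, beside 3.55%, with a median of 1.15 against 0.02; again 0 were lower at an unadjusted p under 0.05 and 0 by DESeq2. Without SR-3420 replicate 1 the 6 became 3, and with the compared groups alone 4. Etomoxir with SR-3420 against SR-3420 raised 0, beside 0% of genes, and lowered 0, beside 0.00782%, by edgeR. In that comparison 1 target was higher at an unadjusted p under 0.05 and 0 were lower, and DESeq2 called 0 in either direction. Over all tested genes, 1279 had an unadjusted p under 0.05 there, and DESeq2 called 10 higher and 83 lower. A model with a block for the replicate number called 2 targets higher there, and over all tested genes 761 higher and 1077 lower. The labels do not say whether equal numbers mark a shared experiment. These comparisons share control samples with one another and with the SR-3420 comparisons.

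Whether SR-3420 acted differently with an inhibitor was tested on the difference between the responses. With triacsin C minus without, the response was higher for 0 of the 10 targets, beside 1.24% of genes, and lower for 1, beside 1.27%. The unadjusted counts were 0 higher and 2 lower, and DESeq2 gave 0 higher and 2 lower. The 1 lower target, Hmox1, was not called without vehicle replicate 2 or 3 or SR-3420 replicate 3. Its vehicle level entered the choice, so this call is not independent of it. With etomoxir minus without, 0 of the 9 targets tested were higher, beside 0% of genes, and 0 were lower, beside 0%, by edgeR; at an unadjusted p under 0.05 the counts were 0 and 1, and DESeq2 called 0 and 0. Over all tested genes 307 had an unadjusted p under 0.05 there, and DESeq2 called 3 higher and 6 lower. Hmox1 was not tested there, because that difference holds the contrast of etomoxir with vehicle. Triacsin C minus etomoxir gave 0 higher, beside 1.52%, and 0 lower, beside 0.774%, with 1 and 0 at an unadjusted p under 0.05; DESeq2 called 0 in either direction.

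**Figure D2:**
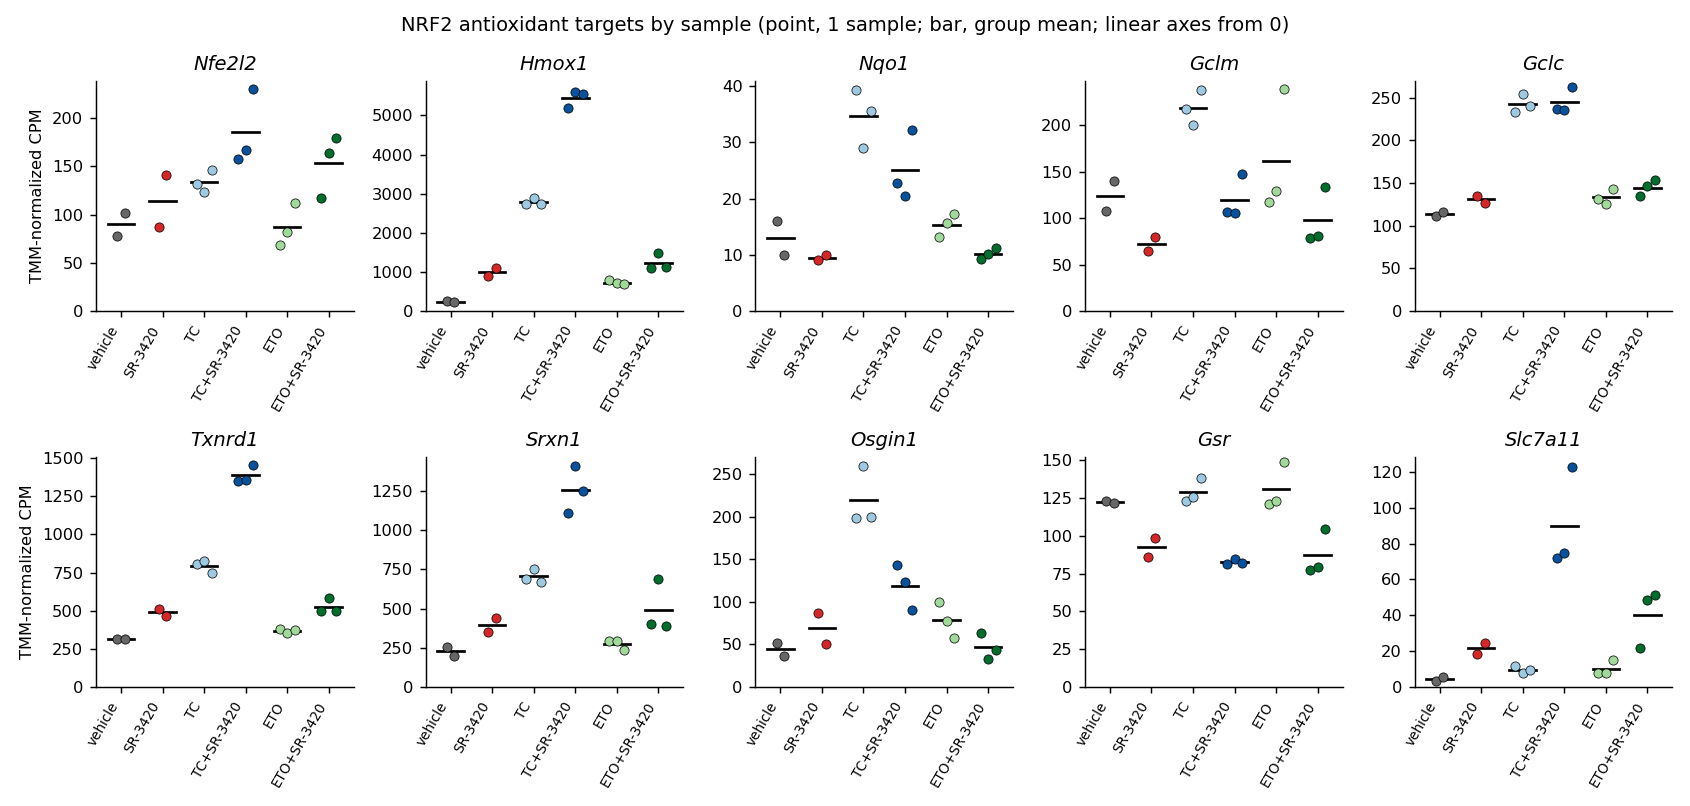
Level of each NRF2 antioxidant target in every sample (CPM, linear axes from 0) by treatment group; points are samples and bars are group means. Hmox1 runs from 238 CPM on average with vehicle to 5452 CPM with triacsin C and SR-3420.

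Nfe2l2 itself, which encodes NRF2, lies in mm9 on chr2:75513576-75542698 on the minus strand, with 5 exons in its longest coding transcript. It had 78.1 and 101 CPM with vehicle and 87.0 and 141 with SR-3420. With triacsin C it had 132, 123 and 146 CPM and with triacsin C and SR-3420 157, 167 and 230.1. With etomoxir it had 68.2, 81.9 and 112 CPM and with etomoxir and SR-3420 117, 164 and 179.7. The etomoxir samples without SR-3420 all lay below those with it, and the vehicle and SR-3420 samples overlapped. Nfe2l2 rose with SR-3420 in the presence of etomoxir (log2 fold change 0.81, SE 0.24, adjusted p 0.0241), and its changes without an inhibitor (0.34, adjusted p 0.546) and with triacsin C (0.47, adjusted p 0.136) did not pass the test. The change with triacsin C passed with the compared groups alone (adjusted p 0.0410, range over the unblocked alternatives 0.0410 to 0.435). The rise over etomoxir did not pass without etomoxir replicate 1 (adjusted p 0.0899), without etomoxir replicate 2 (0.0827), or without etomoxir with SR-3420 replicate 2 (0.0800) or 3 (0.0746), nor with the compared groups alone (0.0934, range 0.00841 to 0.0934). By mean level the groups ran from etomoxir and vehicle to triacsin C with SR-3420, and every neighbour in that order overlapped the next.

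Hmox1 encodes heme oxygenase, which breaks heme down to biliverdin, iron and carbon monoxide, and lies in mm9 on chr8:77617517-77624492 on the plus strand with 5 exons. It had 248 and 229 CPM in the vehicle samples and 910.3 and 1107 CPM with SR-3420. With triacsin C it had 2727, 2889 and 2743 CPM, and with triacsin C and SR-3420 5197, 5610.1 and 5551 CPM. With etomoxir it had 783, 729 and 683 CPM, and with etomoxir and SR-3420 1098, 1482 and 1133 CPM. The samples kept 1 order of groups, with vehicle lowest, then etomoxir, then SR-3420 together with etomoxir and SR-3420, then triacsin C, and then triacsin C with SR-3420 highest, and overlap was seen only between SR-3420 and etomoxir with SR-3420. The group means were 238 ± 13.9 CPM with vehicle and 1009 ± 139 with SR-3420 (SD, n = 2 each), and 2786 ± 89.4 with triacsin C, 5452 ± 224 with triacsin C and SR-3420, 732 ± 50.2 with etomoxir and 1238 ± 212 with etomoxir and SR-3420 (SD, n = 3 each). Per kilobase, its level ranked 406 of the 12786 tested genes with vehicle, 16 with triacsin C and 3 with triacsin C and SR-3420.

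Hmox1 rose with SR-3420 alone (log2 fold change 2.08, SE 0.17, adjusted p 1.86e-05), with SR-3420 over triacsin C, that is among cells given triacsin C (log2 fold change 0.97, SE 0.14, adjusted p 1.40e-04) and with SR-3420 over etomoxir (log2 fold change 0.76, SE 0.14, adjusted p 0.00148). Triacsin C raised it against vehicle (log2 fold change 3.55, SE 0.18, adjusted p 2.43e-07) and among cells given SR-3420 (log2 fold change 2.43, SE 0.17, adjusted p 1.91e-05). Etomoxir against vehicle had a log2 fold change of 1.62, given as a description. Etomoxir with SR-3420 against SR-3420 had 0.30 (SE 0.15, adjusted p 0.525) and did not pass. The log2 response to SR-3420 was lower by the test with triacsin C than without it (difference -1.11, SE 0.22, adjusted p 0.0167). That call was lost without vehicle replicate 2 (adjusted p 0.0534), vehicle replicate 3 (0.116) or SR-3420 replicate 3 (0.0613). In CPM the increase with SR-3420 was 770.2 without an inhibitor, 2666 with triacsin C and 506 with etomoxir, so the order of the responses depends on the scale. The vehicle and etomoxir samples, whose Hmox1 levels entered the choice of this gene, also enter these values: vehicle in SR-3420 alone, triacsin C against vehicle and the difference with triacsin C minus without, and etomoxir in SR-3420 over etomoxir and in the difference with triacsin C minus etomoxir. Those tests of Hmox1 are therefore not independent of the choice, nor are its places in the counts of targets called.

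Txnrd1 encodes a thioredoxin reductase that uses NADPH. It lies in mm9 on chr10:82296696-82360469 on the plus strand and overlaps Eid3 on the same strand, so reads in the shared part could belong to either. It had 316 and 312 CPM with vehicle and 513 and 464 with SR-3420. With triacsin C it had 805, 828 and 746 CPM and with triacsin C and SR-3420 1349.7, 1359 and 1453. The vehicle samples lay below both SR-3420 samples, and the triacsin C samples lay below those given SR-3420 as well. With etomoxir it had 377, 356 and 369.8 CPM and with etomoxir and SR-3420 499, 582 and 498. The groups did not overlap except SR-3420 and etomoxir with SR-3420, and their order was that of Hmox1. Txnrd1 rose with SR-3420 alone (log2 fold change 0.64, SE 0.13, adjusted p 0.00868), with it over triacsin C (log2 fold change 0.81, SE 0.10, adjusted p 7.48e-05) and over etomoxir (log2 fold change 0.52, SE 0.10, adjusted p 0.00287). The first of these did not pass without vehicle replicate 2 (adjusted p 0.0650), vehicle replicate 3 (0.0732) or SR-3420 replicate 1 (0.0792). With the compared groups alone, neither the value with SR-3420 alone (adjusted p 0.300, range over the unblocked alternatives 2.63e-08 to 0.300) nor that over etomoxir (0.0768, 6.05e-09 to 0.0768) passed. Triacsin C raised it against vehicle (log2 fold change 1.34, SE 0.12, adjusted p 1.29e-05) and among cells given SR-3420 (log2 fold change 1.51, SE 0.12, adjusted p 4.79e-05).

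Srxn1 encodes sulfiredoxin, which restores oxidized peroxiredoxins, and lies in mm9 on chr2:151931260-151937112 on the plus strand with 2 exons. It had 256 and 199 CPM with vehicle and 349.9 and 437 with SR-3420. With triacsin C it had 691, 755 and 668 CPM and with triacsin C and SR-3420 1108, 1409 and 1249. The triacsin C samples with SR-3420 were the highest group and overlapped no other. With etomoxir it had 293, 296 and 237 CPM and with etomoxir and SR-3420 402, 690.2 and 387, where replicate 2 stood above the other replicates. Srxn1 rose with SR-3420 over triacsin C (log2 fold change 0.83, SE 0.21, adjusted p 0.00696) and over etomoxir (log2 fold change 0.84, SE 0.21, adjusted p 0.00997), and without an inhibitor the change did not pass (0.79, adjusted p 0.0830) by edgeR but did by DESeq2 (adjusted p 0.0315, range over the unblocked alternatives 0.0315 to 0.396). The rise over etomoxir did not pass with the compared groups alone (0.0809, 7.29e-04 to 0.0809). For Srxn1 the log2 fold change over etomoxir ran from 0.519 to 0.989 with each sample left out in turn. Triacsin C raised it against vehicle (log2 fold change 1.63, SE 0.25, adjusted p 6.66e-04) and among cells given SR-3420 (log2 fold change 1.67, SE 0.25, adjusted p 0.00272), and without SR-3420 replicate 1 the second of these did not pass (adjusted p 0.0711).

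Slc7a11 encodes the cystine importer that supplies cysteine for glutathione, and lies in mm9 on chr3:50168858-50247535 on the minus strand with 12 exons. It had 3.36 and 5.35 CPM with vehicle and 18.5 and 24.4 with SR-3420. With triacsin C it had 11.5, 7.45 and 9.48 CPM and with triacsin C and SR-3420 72.0, 74.5 and 123. Each group given SR-3420 lay above its own control with no overlap. With etomoxir it had 7.51, 7.97 and 15.1 CPM and with etomoxir and SR-3420 21.5, 48.3 and 51.3. Slc7a11 rose with SR-3420 alone (log2 fold change 2.31, SE 0.48, adjusted p 0.0103), over triacsin C (log2 fold change 3.25, SE 0.39, adjusted p 3.95e-05) and over etomoxir (log2 fold change 1.99, SE 0.37, adjusted p 0.00179). The first did not pass without vehicle replicate 2 (adjusted p 0.111), vehicle replicate 3 (0.0513) or SR-3420 replicate 3 (0.0564), nor with the compared groups alone (adjusted p 0.0655, range over the unblocked alternatives 4.33e-05 to 0.111). Triacsin C raised it among cells given SR-3420 (log2 fold change 2.06, SE 0.42, adjusted p 0.0144) but did not pass against vehicle (1.12, adjusted p 0.134). The former did not pass without SR-3420 replicate 1 (adjusted p 0.216), SR-3420 replicate 3 (0.0569) or triacsin C with SR-3420 replicate 3 (0.0557). The difference between its responses with triacsin C and with etomoxir was 1.26 (SE 0.51, adjusted p 0.300) and did not pass.

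Gclc and Gclm encode the catalytic and the modifier subunit of glutamate-cysteine ligase, the limiting step of glutathione synthesis. They lie in mm9 on chr9:77602342-77642296 and chr3:121948475-121970133, both on the plus strand. Gclc had 111 and 116 CPM with vehicle, 135 and 127 with SR-3420, 234, 254 and 239.8 with triacsin C and 237, 235 and 262 with triacsin C and SR-3420. It had 131, 125 and 143 CPM with etomoxir and 134, 146 and 153 with etomoxir and SR-3420. All samples with triacsin C lay above all others, with or without SR-3420. Triacsin C raised Gclc against vehicle (log2 fold change 1.09, SE 0.12, adjusted p 4.44e-05) and among cells given SR-3420 (log2 fold change 0.90, SE 0.11, adjusted p 0.00163), though the latter did not pass with the compared groups alone (adjusted p 0.0593, range over the unblocked alternatives 2.46e-17 to 0.0593). SR-3420 over triacsin C gave 0.01 (adjusted p 0.925).

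Gclm had 108 and 141 CPM with vehicle and 65.3 and 80.2 with SR-3420. With triacsin C it had 217, 201 and 238 CPM and with triacsin C and SR-3420 107, 105 and 148. With etomoxir it had 118, 129 and 239 CPM and with etomoxir and SR-3420 78.5, 81.0 and 134. The triacsin C samples lay above those also given SR-3420, and etomoxir replicate 3 stood high among the etomoxir samples. Gclm fell with SR-3420 over triacsin C (log2 fold change -0.86, SE 0.27, adjusted p 0.0245), in the opposite direction to Hmox1, and its changes without an inhibitor (-0.77, adjusted p 0.195) and over etomoxir (-0.73, adjusted p 0.0670) did not pass. Over etomoxir it passed without etomoxir replicate 1 (adjusted p 0.0361), without etomoxir with SR-3420 replicate 3 (0.0178) and by DESeq2 (adjusted p 0.0405, range over the unblocked alternatives 0.0178 to 0.304). The call over triacsin C was lost without triacsin C replicate 1 (adjusted p 0.0525) or 3 (0.0710), and without triacsin C with SR-3420 replicate 1 (0.0780) or 2 (0.121). Triacsin C against vehicle gave 0.81 (adjusted p 0.117) and passed with the compared groups alone (adjusted p 0.0301, range 0.0301 to 0.383).

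Gsr encodes glutathione reductase, which regenerates glutathione with NADPH, and lies in mm9 on chr8:34763710-34808634 on the plus strand. It had 123 and 122 CPM with vehicle, 86.2 and 98.6 with SR-3420, 123, 125 and 138 with triacsin C and 81.6, 84.8 and 81.8 with triacsin C and SR-3420. It had 121, 123 and 149 CPM with etomoxir and 77.2, 79.4 and 105 with etomoxir and SR-3420. Every sample given SR-3420 lay below every sample not given it. Gsr fell with SR-3420 over triacsin C (log2 fold change -0.64, SE 0.13, adjusted p 0.00207) and over etomoxir (log2 fold change -0.59, SE 0.13, adjusted p 0.00542), and without an inhibitor the change did not pass (-0.40, adjusted p 0.157). The fall over etomoxir did not pass with the compared groups alone (adjusted p 0.0833, range over the unblocked alternatives 2.08e-04 to 0.0833). Triacsin C against vehicle gave 0.08 (adjusted p 0.818).

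Nqo1 encodes a quinone reductase and lies in mm9 on chr8:109912125-109927105 on the minus strand. It had 15.9 and 9.96 CPM with vehicle, 9.08 and 9.90 with SR-3420, 39.3, 28.9 and 35.5 with triacsin C and 22.8, 20.4 and 32.1 with triacsin C and SR-3420. It had 13.1, 15.6 and 17.3 CPM with etomoxir and 9.23, 10.2 and 11.2 with etomoxir and SR-3420. The samples with triacsin C, with or without SR-3420, lay above all others. Triacsin C raised Nqo1 against vehicle (log2 fold change 1.41, SE 0.25, adjusted p 0.00195) and among cells given SR-3420 (log2 fold change 1.40, SE 0.25, adjusted p 0.00696), and without SR-3420 replicate 1 the latter did not pass (adjusted p 0.123), nor with the compared groups alone (adjusted p 0.0732, range over the unblocked alternatives 1.95e-06 to 0.123). Its changes with SR-3420 were -0.45 alone, -0.46 over triacsin C and -0.58 over etomoxir, and none of the 3 passed by edgeR (adjusted p 0.349, 0.0984 and 0.0608), while DESeq2 called it over etomoxir (adjusted p 0.0310, range over the unblocked alternatives 0.0310 to 0.145). Over triacsin C the change passed without triacsin C with SR-3420 replicate 3 (adjusted p 0.0310, range 0.0310 to 0.368).

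Osgin1, whose product restrains growth under oxidative stress, lies in mm9 on chr8:121961062-121970156 on the plus strand. It had 51.8 and 36.1 CPM with vehicle, 87.3 and 50.8 with SR-3420, 198, 259 and 199.7 with triacsin C and 143, 123 and 90.1 with triacsin C and SR-3420. It had 100.01, 77.9 and 56.9 CPM with etomoxir and 62.9, 32.9 and 43.2 with etomoxir and SR-3420. The triacsin C samples without SR-3420 stood above all others, and the remaining groups overlapped their neighbours. Osgin1 rose with triacsin C against vehicle (log2 fold change 2.32, SE 0.35, adjusted p 7.08e-04) and fell with SR-3420 over triacsin C (log2 fold change -0.88, SE 0.29, adjusted p 0.0287). The fall did not pass without triacsin C replicate 2 (adjusted p 0.107), or without triacsin C with SR-3420 replicate 2 (0.0697) or 3 (0.109). Over etomoxir the change (-0.76, adjusted p 0.0734) did not pass by edgeR, but it passed without etomoxir replicate 3 (adjusted p 0.0372), without etomoxir with SR-3420 replicate 1 (0.0265) and by DESeq2 (0.0484, range over the unblocked alternatives 0.0265 to 0.263). The difference between the responses with and without triacsin C was -1.53 (SE 0.46, adjusted p 0.101) and did not pass by edgeR but did by DESeq2 (adjusted p 0.0385, range over the unblocked alternatives 0.0385 to 0.466). With etomoxir minus without, the difference was -1.41 (SE 0.46) and did not pass by edgeR (unadjusted p 0.00895, adjusted p 0.988). Triacsin C minus etomoxir gave -0.13 (SE 0.41, adjusted p 0.958).

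**Figure D3:**
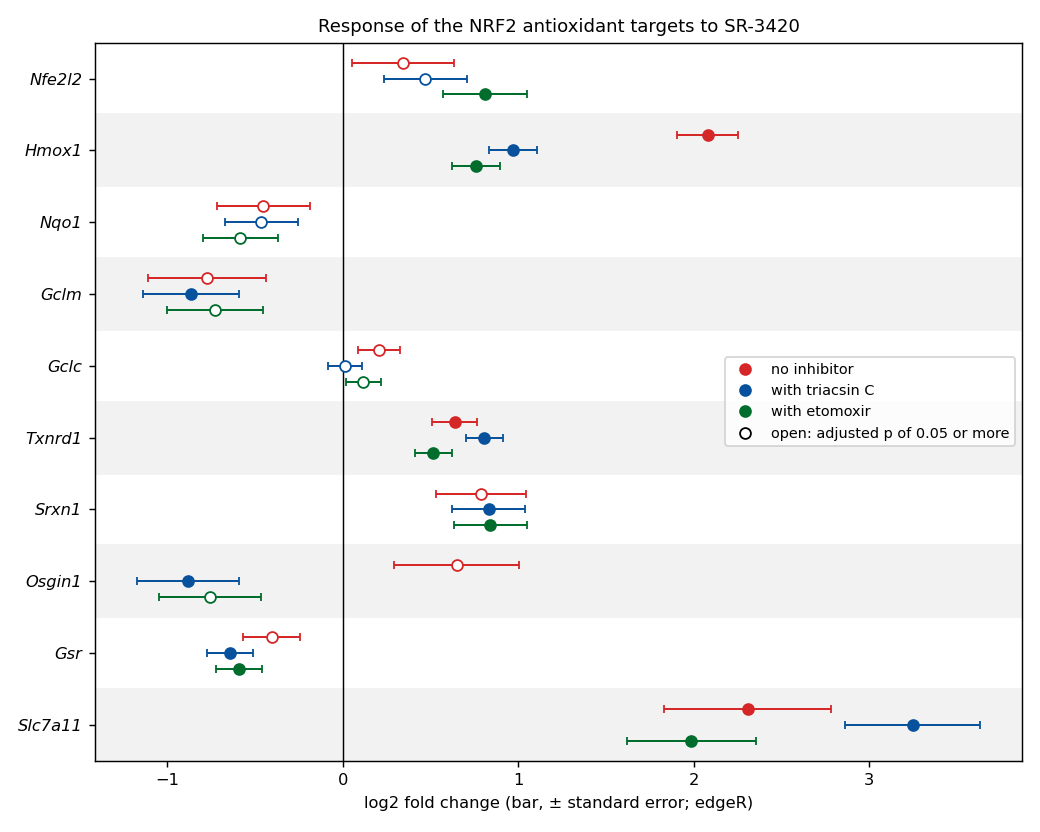
Log2 fold change with SR-3420 of each NRF2 antioxidant target without an inhibitor, with triacsin C and with etomoxir; bars show the SE and open points did not pass. Hmox1, Txnrd1 and Slc7a11 rose in each of the 3 comparisons, while Gsr fell with either inhibitor present.

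**Figure D4:**
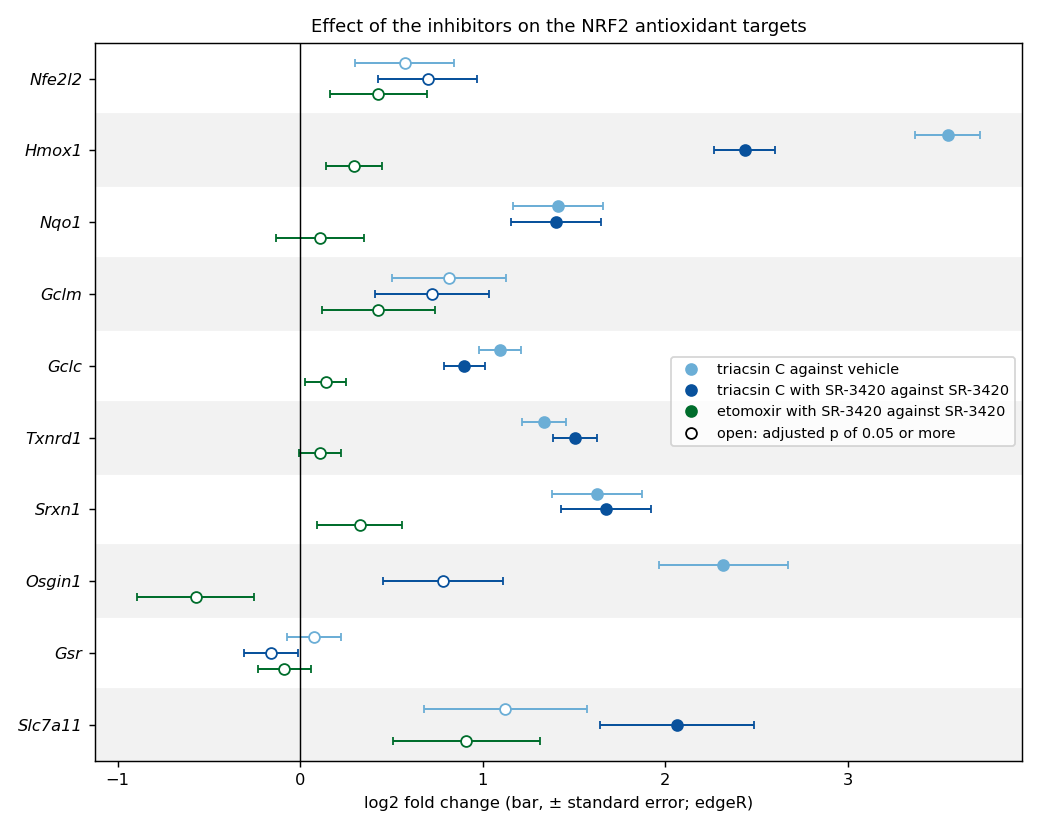
Log2 fold change with each inhibitor of every NRF2 antioxidant target, for triacsin C against vehicle and for either inhibitor with SR-3420 against SR-3420; bars show the SE and open points did not pass. Hmox1 had the highest value with triacsin C, 3.55 against vehicle and 2.43 among cells given SR-3420.

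The levels of the other targets followed Hmox1 to different degrees over the 16 samples. As a description, Pearson's r of log2 CPM with Hmox1 was 0.959 for Txnrd1, 0.955 for Srxn1, 0.915 for Gclc, 0.724 for Nfe2l2, 0.696 for Slc7a11, 0.652 for Osgin1, 0.634 for Nqo1, 0.161 for Gclm and -0.415 for Gsr. The samples of 1 group share a treatment, so the 16 points are not independent of it. Outside the 10 targets, which were left out of this ranking, 10324 genes were compared, and the 5 most like Hmox1 were Zfand2a (r 0.938), Ppp1r8 (0.927), Mt2 (0.922), Nop56 (0.918) and Odc1 (0.910). By Spearman's rho 3 of these were among the 5 most like Hmox1, with Phf5a and Doc2a in place of Nop56 and Odc1. Mt2 had a mean of 51.7 CPM with vehicle, 203 with SR-3420, 541 with triacsin C, 901 with triacsin C and SR-3420, 46.5 with etomoxir and 223 with etomoxir and SR-3420, so it was not higher with etomoxir alone as Hmox1 was.

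Beyond the 10 targets, 65 genes of the same pathways were listed and 62 were tested, while Gpx2, Gsta1 and Gsta2 had too few counts. The values in brackets give the share of the 62 and then that of all tested genes. SR-3420 alone raised 7 (11.3% and 4.75%) and lowered 11 (17.7% and 2.79%). Over triacsin C it raised 12 (19.4% and 17.3%) and lowered 32 (51.6% and 19.7%). Over etomoxir it raised 9 (14.5% and 12.5%) and lowered 22 (35.5% and 12.8%), so the shares raised over either inhibitor lay near those of all genes. Over the unblocked alternatives these counts ran from 1 to 8 raised and 0 to 16 lowered with SR-3420 alone, 10 to 14 and 26 to 35 over triacsin C, and 3 to 10 and 13 to 25 over etomoxir. Triacsin C against vehicle raised 13 (21.0% and 4.77%) and lowered 3 (4.84% and 6.94%), and among cells given SR-3420 it raised 2 (3.23% and 1.02%) and lowered 2 (3.23% and 3.55%). The same ranges were 0 to 16 and 3 to 4 against vehicle, and 0 to 7 and 0 to 4 among cells given SR-3420. With triacsin C against vehicle 50 of the 62 lay above 0 (median 0.37, beside 0.07 over all genes). They were 9 of 9 glutathione transferases, 10 of 10 of glutathione and cystine and 4 of 4 of superoxide and peroxide removal. For thioredoxin and peroxiredoxin they were 5 of 7, for detoxification 7 of 9 and for NRF2 regulators and partners 7 of 10. For NADPH supply they were 4 of 6 and for heme and iron 4 of 7. The changes over triacsin C are measured from these levels. Etomoxir with SR-3420 against SR-3420 raised 0 and lowered 0 by edgeR, with 1 higher and 13 lower at an unadjusted p under 0.05 and 0 in either direction by DESeq2.

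In the list of NRF2 regulators and partners 10 were tested, and brackets after the shares of all tested genes give ranges over the unblocked alternatives. SR-3420 alone raised 3 and lowered 0, beside 4.75% and 2.79% (0 to 4 and 0 to 0). Over triacsin C it raised 5 and lowered 1, beside 17.3% and 19.7% (4 to 6 and 1 to 2). Over etomoxir it raised 4 and lowered 1, beside 12.5% and 12.8% (1 to 4 and 0 to 2). Triacsin C against vehicle raised 4 and lowered 2, beside 4.77% and 6.94% (0 to 5 and 2 to 2). Among these genes Maff, a small MAF partner, rose with SR-3420 alone (log2 fold change 1.80, adjusted p 0.00146), over triacsin C (0.81, 0.00946) and over etomoxir (1.53, 2.82e-04). Keap1, the inhibitor of NRF2, fell with SR-3420 over triacsin C (-1.37, 0.00545). Bach1, a repressor at the same elements, rose with SR-3420 over etomoxir (0.54, 0.00107). Bach2 fell with triacsin C (-1.29, 9.00e-05) and rose with SR-3420 over it (1.00, 1.12e-04). These values passed with each sample left out in turn. With the compared groups alone, Maff with SR-3420 alone (adjusted p 0.0596, range over the unblocked alternatives 2.46e-08 to 0.0596) and Bach1 over etomoxir (0.0605, 6.66e-12 to 0.0605) did not pass. Mafk was also called higher with SR-3420 alone and over etomoxir, and in neither with the compared groups alone (adjusted p 0.186 and 0.0665). Bach1 was also called higher with triacsin C against vehicle. That call was lost with no filter on low counts (adjusted p 0.175) and with the compared groups alone (0.119).

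In the glutathione and cystine list of 10 tested, SR-3420 raised 3 and lowered 1 alone (1 to 3 and 0 to 2 over the unblocked alternatives), raised 4 and lowered 3 over triacsin C (3 to 4 and 2 to 4) and raised 3 and lowered 2 over etomoxir (2 to 3 and 2 to 2). Of all tested genes it raised 4.75%, 17.3% and 12.5% in these 3 comparisons and lowered 2.79%, 19.7% and 12.8%. Chac1, which degrades glutathione, rose with SR-3420 by 2.12 alone, 2.15 over triacsin C and 1.62 over etomoxir (adjusted p 8.67e-04, 2.46e-05 and 3.29e-04). Slc3a2, the partner chain of the Slc7a11 protein, rose by 1.45, 1.12 and 1.24 (adjusted p 0.00117, 2.46e-04 and 2.38e-04). Gpx3 and Glrx fell over triacsin C (-1.43 and -1.29, adjusted p 1.47e-05 and 1.31e-04) and over etomoxir (-0.77 and -1.01, adjusted p 0.00195 and 0.00129).

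The counts that follow stand beside 2.79% of all tested genes lowered by SR-3420 alone, 19.7% over triacsin C and 12.8% over etomoxir, and each is followed by its range over the unblocked alternatives. Of the genes of NADPH supply, 0 of 6 were lower with SR-3420 alone by edgeR (4 at an unadjusted p under 0.05 and 3 by DESeq2, range 0 to 3), 6 of 6 over triacsin C (5 to 6) and 5 of 6 over etomoxir (3 to 5), and Idh1 had the largest changes, -1.28 and -1.04 over the inhibitors (adjusted p 0.00201 and 0.0108). Of the glutathione transferases, 3 of 9 tested were lower with SR-3420 alone (0 to 4), 7 over triacsin C (5 to 7) and 3 over etomoxir (3 to 4). The genes with the largest called changes were Gsta3 (-2.40, adjusted p 9.07e-04) and then Gstm1 (-1.60, 1.30e-05), both over triacsin C. Gsta3 was near the floor, with means of 2.22 CPM with triacsin C and 0.392 with triacsin C and SR-3420. Mgst1 also fell over etomoxir (-1.27, 4.41e-04), which was not its largest called change. Genes that remove superoxide and peroxide were lower with SR-3420 alone in 1 of 4 (0 to 1), over triacsin C in 4 of 4 (3 to 4) and over etomoxir in 3 of 4 (1 to 3), with the largest changes in Sod3, -1.55 and -1.32 over the inhibitors (adjusted p 0.00357 and 0.0130). In the heme and iron list, 2 of 7 were lower with SR-3420 alone (0 to 2), 4 over triacsin C (3 to 5) and 3 over etomoxir (1 to 4), and Slc40a1, the iron exporter, fell with SR-3420 alone (-2.31, 0.00160) and over etomoxir (-1.94, 3.52e-04). Without etomoxir with SR-3420 replicate 2, the values over etomoxir did not pass for Idh1 (adjusted p 0.0570) and Sod3 (0.0581), and neither did they with the compared groups alone (0.0747, range 0.00116 to 0.0747, and 0.0819, range 0.00153 to 0.0819).

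Of the 7 genes of the thioredoxin and peroxiredoxin list, 1 rose and 1 fell with SR-3420 alone. Over triacsin C 1 rose and 3 fell (list median -0.36), and over etomoxir 1 rose and 1 fell (list median -0.26). Each count of 1 is 14.3% of the list, beside 4.75%, 17.3% and 12.5% of all tested genes raised in these comparisons. The shares raised over either inhibitor, and the share lowered over etomoxir (beside 12.8%), lay near those of all genes. The 3 lowered over triacsin C are 42.9%, beside 19.7%. Over the unblocked alternatives the number lower ran from 0 to 1 with SR-3420 alone, 0 to 4 over triacsin C, where the 0 came with no filter on low counts, and 0 to 2 over etomoxir, and the number higher from 0 to 1, 1 to 1 and 0 to 1. The gene that rose over both inhibitors was Txnip, an inhibitor of thioredoxin (0.75, 0.00217 over triacsin C and 0.82, 0.00199 over etomoxir). In the detoxification list of 9, 3 fell with SR-3420 alone, 4 fell and 2 rose over triacsin C, and 4 fell and 1 rose over etomoxir, with ranges of 0 to 3, then 4 to 4 and 2 to 3, and then 3 to 4 and 0 to 2. The 2 of 9 and 1 of 9 raised lay near the 17.3% and 12.5% of all tested genes. Aox1 fell with SR-3420 alone (-1.26, 2.33e-04), over triacsin C (-1.86, 5.17e-07) and over etomoxir (-1.64, 1.93e-06). The values of Chac1, Slc3a2, Gpx3, Glrx, Gsta3, Gstm1, Mgst1, Slc40a1, Txnip and Aox1 given here passed with each sample left out in turn. With the compared groups alone, the values with SR-3420 alone did not pass for Slc3a2 (adjusted p 0.0797, range over the unblocked alternatives 1.90e-09 to 0.0797), Slc40a1 (0.0853, 2.26e-07 to 0.0853) and Aox1 (0.0854, 8.59e-17 to 0.0854), nor did Txnip over etomoxir (0.0603, 1.29e-05 to 0.0603).

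**Figure D5:**
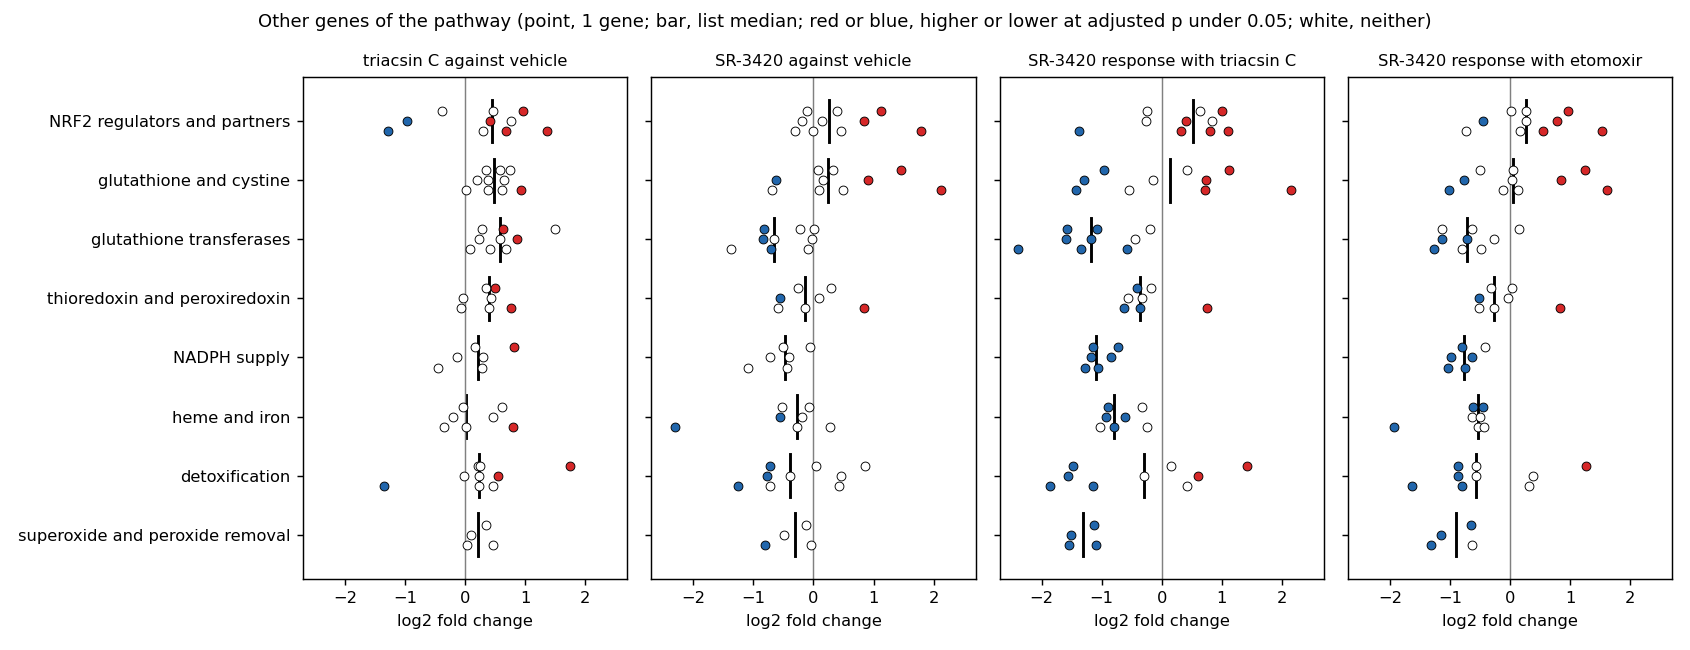
Log2 fold changes (horizontal axis) of the other pathway genes by list, for triacsin C against vehicle and the 3 SR-3420 comparisons; each point is a gene, each bar a list median, and color marks genes past the test. The 6 genes of NADPH supply lay below 0 in each SR-3420 comparison.

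Markers were read in the same samples. The summed level of the brown adipocyte list (8 of 8 in the table, Fabp4 the most abundant) was 11749 CPM on average with vehicle, 8526 with SR-3420, 13381 with triacsin C, 5109 with triacsin C and SR-3420, 11752 with etomoxir and 6189 with etomoxir and SR-3420. The sum is carried by Fabp4 and Adipoq, and the genes of the list did not move together. With SR-3420 alone 4 of the 8 lay above 0 (median log2 fold change 0.08), the 1 called was Pparg, lower (adjusted p 0.0327, range over the unblocked alternatives 0.00437 to 0.242, and lost without each of the 4 samples in turn), and Cidea had means of 17.4 CPM with vehicle and 29.4 with SR-3420, which did not pass. With triacsin C against vehicle the 2 called were both lower, Pparg (329 to 118 CPM) and Ppargc1a (51.6 to 25.1), though the sum was higher, and the Ppargc1a call was lost without vehicle replicate 2 (adjusted p 0.0840) or 3 (0.114) or triacsin C replicate 1 (0.0734) or 2 (0.0678). SR-3420 lowered 3 of the 8 over triacsin C (37.5%, beside 19.7% of all tested genes, range 3 to 4) and 4 over etomoxir (50.0%, beside 12.8%, range 1 to 4). Among cells given SR-3420, triacsin C lowered 3 of the 8 (37.5%, beside 3.55%, range 0 to 5, 5 by DESeq2). Ucp1 was near the floor, with means from 1.22 to 3.20 CPM. The preadipocyte or fibroblast list (6 of 6, Col1a1 the most abundant) summed to 1518, 3150.2, 2021, 3528, 1459 and 3175 CPM in the same order of groups. All 6 lay above 0 in each SR-3420 comparison. SR-3420 alone raised 0 of the 6 by edgeR (3 at an unadjusted p under 0.05, 2 by DESeq2), and it raised 2 over triacsin C (33.3%, beside 17.3% of all tested genes, range 0 to 5) and 5 over etomoxir (83.3%, beside 12.5%, range 0 to 6, where the 0 came with the compared groups alone). The macrophage list (4 of 5 in the table, Cd68 the most abundant) summed to 5.38, 8.43, 17.2, 8.86, 6.71 and 7.61 CPM in that order, and Cd68, 1 of 2 tested, rose with triacsin C (1.92, adjusted p 3.66e-04) and fell with SR-3420 over it (-1.29, 6.51e-04), under each unblocked alternative. Csf1r, the other macrophage gene tested, was not called and did not fall with SR-3420 over triacsin C. Its means were 0.825 CPM with vehicle, 1.19 with triacsin C and 1.70 with triacsin C and SR-3420. The myoblast list summed to between 6.52 and 11.2 CPM and the endothelial list to between 0.529 and 0.858. In the myoblast list Des fell with SR-3420 over triacsin C (-1.23, adjusted p 0.00273) and over etomoxir (-1.09, 0.00746). The latter did not pass with the compared groups alone (0.0616). Myod1, the other myoblast gene tested, moved the opposite way to Des. Its mean went from 1.11 to 2.78 CPM without an inhibitor, from 3.02 to 5.36 over triacsin C and from 1.52 to 3.12 over etomoxir. By edgeR it was higher at an unadjusted p under 0.05 each time but was not called. The part of these markers in the results was not tested.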

How the data were processed

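RNA-seq counts of 20295 genes in 16 samples were deposited by the authors as a count table: reads were aligned with STAR 2.4.2a to mm9 and counted per gene with HOMER and iRNA-seq. HOMER kept 1 read per position per length, which limits counts per length; the highest Hmox1 density was 51.5 counts per base and the highest of any gene of 200 bases or more was 330.5 (Cfd), and the part of this limit was not tested. Strand use is not given in the sources used here. From these counts, TMM scaling, filterByExpr by group (12786 genes kept) and 1 quasi-likelihood model of 6 group means were run in edgeR 4.0.16 (R 4.3.3), with Benjamini-Hochberg adjustment and a threshold of 0.05. CPM are TMM-scaled. The scripts were tested on simulated data. Alternatives were DESeq2 1.42.0 size factors and Wald test, no filter, at least 10 counts in every sample, the compared groups alone, a replicate block and each sample left out. Named genes are at most 4 of each list with the largest called change, Keap1 and Bach1, the 5 most like Hmox1 (mean CPM of at least 5), and, chosen after their values were seen, Abcc4, Btrc and some markers. The targets and lists were chosen with earlier results of these data known. Plots used matplotlib 3.10.9 (Python 3.11.15).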

Additional observations from a re-analysis of the deposited data

Results flagged for a closer look

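These genes, of the targets, the other pathway lists and the markers, had responses to SR-3420 that differed between groups by edgeR's test of the difference, adjusted over all tested genes. Abcc4, Btrc and Cd68 are named because of these values. For Abcc4, which encodes an exporter, the response with triacsin C minus the response without it was 1.32 on the log2 scale (SE 0.18, adjusted p 0.00332), and triacsin C minus etomoxir gave 1.47 (SE 0.16, adjusted p 8.81e-04). Both passed under each of the unblocked alternatives (adjusted p 1.17e-10 to 0.0252 and 5.94e-16 to 0.00491). For Cd68 the 2 differences were -1.98 (SE 0.36, adjusted p 0.0139) and -1.44 (SE 0.32, adjusted p 0.0329). The first was lost without vehicle replicate 3 (0.0960) or SR-3420 replicate 1 (0.0882), and the second passed without etomoxir with SR-3420 replicate 3 but not without each of the other 11 samples (0.0553 to 0.0938), nor with no filter on low counts (0.05002). For Btrc triacsin C minus etomoxir gave 0.86 (SE 0.18, adjusted p 0.0257), which passed without 5 of the 12 samples in turn and not without each of the other 7 (0.0542 to 0.0803), nor with the compared groups alone (0.0526). For Hmox1 the response with triacsin C minus the response without it was -1.11 on the log2 scale (SE 0.22, adjusted p 0.0167). The vehicle level of Hmox1 entered the choice of that gene, and a vehicle level low by chance would move this difference below 0. Its p is therefore not independent of the choice. The difference is the 1 target counted above as lower with triacsin C minus without, and is among the 29 called values counted below. For Bach2 the same difference was 1.01 (SE 0.21, adjusted p 0.0263), and triacsin C minus etomoxir gave 0.84 (SE 0.19, adjusted p 0.0353). For Sod2 the difference with triacsin C minus without was -0.999 (SE 0.22, adjusted p 0.0355). With each sample left out in turn, the Bach2 difference with triacsin C minus without passed without SR-3420 replicate 3 (adjusted p 0.0461), triacsin C replicate 2 (0.0430) or triacsin C with SR-3420 replicate 2 (0.0409), and not without each of the other 7 samples (0.0528 to 0.146). The Bach2 difference with triacsin C minus etomoxir passed without triacsin C with SR-3420 replicate 2 (0.0453) and not without each of the other 11 samples (0.0556 to 0.107). The Sod2 difference passed without SR-3420 replicate 3 (0.0286) and not without each of the other 9 samples (0.0553 to 0.206). With no filter on low counts, the Sod2 difference (adjusted p 0.0683) and the Bach2 differences (0.0610 for triacsin C minus without, 0.0724 for triacsin C minus etomoxir) did not pass, and neither did they with the compared groups alone (0.0608, 0.0589 and 0.0559). For Hmox1 the difference did not pass without vehicle replicate 2 (0.0534), vehicle replicate 3 (0.116) or SR-3420 replicate 3 (0.0613).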

How the results depend on the processing

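Of the 29 called values of the targets, 29 kept their call with DESeq2 size factors, with DESeq2's Wald test, with no filter and with at least 10 counts in every sample, 21 kept it with the compared groups alone, and 20 with every sample left out in turn; 0 reversed. With the compared groups alone, the targets raised by SR-3420 went from 3 to 1, those raised over etomoxir from 5 to 2 and those lowered over etomoxir from 1 to 0; fewer samples and fewer residual degrees of freedom enter that fit. The 8 values lost were Txnrd1 (adjusted p 0.300) and Slc7a11 (0.0655) with SR-3420 alone, Nfe2l2 (0.0934), Txnrd1 (0.0768), Srxn1 (0.0809) and Gsr (0.0833) over etomoxir, and Nqo1 (0.0732) and Gclc (0.0593) with triacsin C among cells given SR-3420, and calls were gained for Nfe2l2 over triacsin C (0.0410) and Gclm with triacsin C against vehicle (0.0301). DESeq2's Wald test lowered 4 over etomoxir in place of 1, and 2 in place of 1 for the difference with triacsin C minus without. When each sample was left out, the targets raised by SR-3420 ran from 1 to 2, those lowered over triacsin C from 1 to 3, those lowered over etomoxir from 1 to 2, those raised by triacsin C among cells given SR-3420 from 3 to 6, and those with a lower response with triacsin C than without from 0 to 1; a sample left alone in its group was assumed to vary like the other groups. Direction changed where values lay near 0: Nfe2l2 with SR-3420 alone (0.34) ran from -0.0422 to 0.652, Gsr with etomoxir and SR-3420 against SR-3420 (-0.09) from -0.24 to 0.0137, and Gclc over triacsin C (0.01) from -0.0375 to 0.0891, and Gclc was -0.0089 with at least 10 counts in every sample. The cause was not tested. Slc7a11 and Nqo1 had the lowest mean levels of the targets with vehicle (4.36 and 12.9 CPM), and the part of depth in their values was not tested.

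With a replicate block, 29 of the 29 called values kept their call, and more targets were called: raised by SR-3420 4 in place of 3 and lowered 2 in place of 0, raised over triacsin C 5 in place of 4 and lowered 4 in place of 3, lowered over etomoxir 4 in place of 1, raised by triacsin C 9 in place of 6 against vehicle and 9 in place of 6 among cells given SR-3420, raised by etomoxir among cells given SR-3420 2 in place of 0, lower response with triacsin C than without 2 in place of 1, and higher response with triacsin C than with etomoxir 1 in place of 0. Calls rose over all tested genes too: with SR-3420 alone from 607 higher and 357 lower to 1423 and 1015, and with etomoxir among cells given SR-3420 from 0 and 1 to 761 and 1077, so the gain is not particular to the targets. The block gained Srxn1 (higher), Gclm and Gsr (lower) with SR-3420 alone. It gained Nfe2l2 (higher) and Nqo1 (lower) over triacsin C, and Nqo1, Gclm and Osgin1 (lower) over etomoxir. With triacsin C it gained Nfe2l2, Gclm and Slc7a11 against vehicle, and Nfe2l2, Gclm and Osgin1 among cells given SR-3420, all higher. With etomoxir among cells given SR-3420 it gained Nfe2l2 and Slc7a11 (higher). The lower Osgin1 response with triacsin C than without was gained too. Samples are numbered 1 to 3. By the study's description the repeats within a group are independent experiments, and neither labels nor methods say whether equal numbers in different groups mark 1 shared experiment. Samples of equal number had a mean correlation of 0.410 over 35 pairs (lowest -0.286) and samples of different number -0.203 over 71 pairs, and 11 of the 16 samples were nearest to 1 of their own number. These correlations are of log2 CPM less the mean of the group. Within a group such deviations sum to 0, so the negative mean for different numbers is tied to the other mean. It is not a separate observation.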
